A study of Mus musculus with 6 samples.

Results

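Cd3d, Cd3e, Cd3g, Cd247, Lat, Lck, Zap70, Cd2 and Thy1 encode parts of the T-cell receptor (TCR) complex, its proximal signalling proteins and surface proteins that act beside them. These 9 genes were taken as a named list, by symbol, from the 20097 genes listed in the deposited tables. All 9 were listed, and all 9 passed the filter on low values that left 15410 genes to be tested. Their RNA was followed in mouse bone marrow cells selected for c-Kit, the surface receptor of blood stem and progenitor cells, so the list belongs to a lineage that is not the main content of these samples.

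RNA was sequenced from c-Kit+ cells with the genotype label WT (3 libraries) and with the label Runx1 KO (3 libraries), the second naming the loss of Runx1, a transcription factor gene of blood development. The sources used here do not give the age or sex of the animals, nor how, when and in which cells the gene was disrupted. It is also not stated that the replicates came from separate animals, so the p-values below measure the spread between these libraries only, which may be technical. The comparison addressed here is how the TCR genes differed between the labels, and every difference is given as Runx1 KO minus WT.

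The TCR recognises peptides with its variable alpha and beta (or gamma and delta) chains, which have almost no cytoplasmic part. Signals pass through the CD3 gamma, delta and epsilon chains and the zeta chain, whose tails are phosphorylated by the kinase Lck and then bind the kinase Zap70. Zap70 phosphorylates the membrane adaptor Lat, on which phospholipase C gamma and other effectors assemble. In bone marrow these genes are textbook markers of T cells, but Lat also serves in platelets, mast cells and natural killer (NK) cells, Lck, Zap70, Cd247 and Cd2 in NK cells, and Thy1 in some stem and progenitor cells.

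Promoter sequence was examined for the letters preferred by RUNX proteins, since the groups are named for Runx1, and for those preferred by GATA proteins, since GATA2 is the other factor in the title of the series. RefSeq promoters on GRCm38.p6, each of 300 bases, were matched for 7 of the 9 genes by symbol, with 10 start sites in all. Cd2 and Thy1 were not matched. TGTGGT, searched on both strands and so also as ACCACA, was found at 1 start site each of Lat, Lck and Zap70, against 16.8% of 32817 promoters of the same length. AGATAA, read as TTATCT on the opposite strand, which does not overlap these matches, was found for Cd3g, against 11.2% of the same promoters. A match of 6 letters is a description and not a binding site. The matches are shown with 20 bases on each side, on the strand of the gene and in 5′ to 3′ order, with the matched letters in capitals.
Lat: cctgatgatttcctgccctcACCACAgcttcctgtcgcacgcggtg
Lck: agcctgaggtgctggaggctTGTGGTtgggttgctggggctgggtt
Zap70: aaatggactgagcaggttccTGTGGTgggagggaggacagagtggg
Cd3g: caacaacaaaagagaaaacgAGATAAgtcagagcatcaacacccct
The Lat stretch lies at chr7:126369548-126369593 on the minus strand, and its match begins at position -5 from the start site and runs across it. The Lck stretch lies at chr4:129573674-129573719 on the minus strand, with its match at position -58. That of Zap70 lies at chr1:36764420-36764465 on the plus strand, at position -75 of the second of 3 start sites. That of Cd3g lies at chr9:44980510-44980555 on the minus strand, at position -104. Neither set of letters was present in the windows of Cd3d, Cd3e and Cd247, nor at the other start sites of Lck and Zap70.

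Library depth ran from 23297526 to 26793380 recovered reads, and 3 reads corresponded to 2.88 to 3.14 normalised reads. Kit, the gene of the sorting marker, was abundant under both labels (8301 ± 280 and 12649 ± 1093 normalised reads, SD, n = 3). Runx1 itself was higher, not lower, under the label Runx1 KO: it had 3031, 2799 and 3497 normalised reads under the label WT and 6648, 6720 and 5830 under that label, a log2 change of 1.04 (SE 0.10, limma adjusted p 0.00163). Values per gene do not show whether an exon is missing, so the groups are called by their labels. Replicate 1 of Runx1 KO stood apart in the TCR genes. It was the highest library labelled Runx1 KO for 9 of the 9 genes, against 41.3% of all tested genes, and it lay within the range of the WT libraries for 5 of the 9 (Cd3d, Cd3e, Cd3g, Lck and Zap70), against 32.8% of all tested genes. WT replicate 1 was in turn the highest WT library for 8 of the 9, all but Lat, against 36.7% of all tested genes. Results are therefore given with and without Runx1 KO replicate 1. That library was singled out by its values in these same genes. Calls made without it are therefore descriptions and do not add support to a fall.

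Of the 9 genes, Lat rose and Cd2 fell in the libraries labelled Runx1 KO, and the other 7 did not pass the test. The test was limma on log2(normalised read count + 1), with an adjusted p under 0.05 as the threshold for calling a gene. Across all tested genes 21.9% were called (10.6% higher, 11.3% lower), so 2 calls among 9 genes is near the background and is not a result about the list. The median log2 change of the 9 genes was -1.48, against -0.004 for all tested genes. Scaling by library totals moved that median to 0.08 and the share of all calls that were higher from 48.4% (of 3370 calls) to 63.5% (of 3755). Under it too Lat and Cd2 were the genes of the list called, where 24.4% of all tested genes were called (15.5% higher, 8.9% lower). On the recovered reads, edgeR called 1 of the 9, Lat, against 21.2% of all tested genes (10.6% higher, 10.5% lower). The median log2 change of the 9 genes in edgeR was -0.94, smaller in size than in limma. Cd3d changed by -1.11, Cd3e by -0.53 and Cd3g by -0.82 in edgeR, while Lat rose by 1.01. DESeq2 called 4 (Lat, Lck, Cd2 and Thy1), against 25.4% (11.6% higher, 13.8% lower), and limma with a replicate block called 5, against 24.9% (10.7% higher, 14.2% lower). With a replicate block edgeR called 4, against 23.9% (10.7% higher, 13.2% lower). With Runx1 KO replicate 1 left out, 8 of the 9 were called, all but Cd247, 1 higher and 7 lower. In that fit 23.0% of all tested genes were called (10.6% higher, 12.5% lower), and the median log2 change of the 9 was -2.26. Leaving out any other library in turn called 1 of the 9, Lat, where 1349 to 2494 of all tested genes were called. The groups did not overlap for Lat, Cd2 and Thy1, that is 3 of 9 genes, against 43.3% of all tested genes. In bulk RNA, fewer cells of a type and less RNA per cell cannot be told apart.

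**Figure D1:**
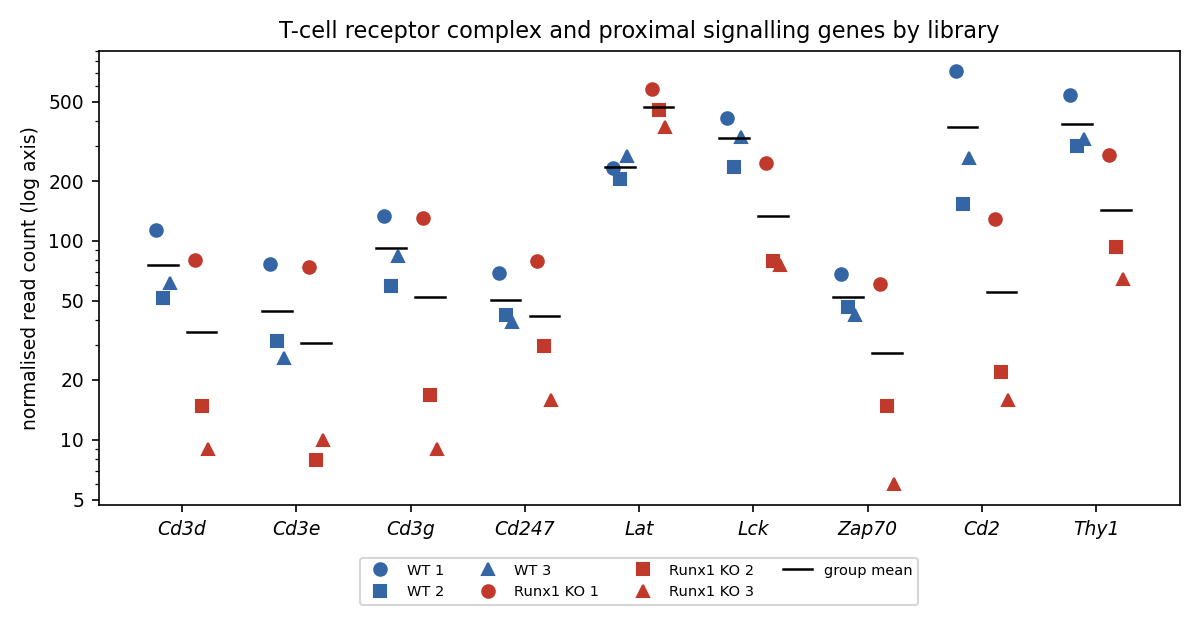
Normalised read count (log axis) of the 9 genes in each library, with WT in blue, Runx1 KO in red, a marker shape for each replicate number and a bar for the group mean. Runx1 KO replicate 1 (red circles) is the highest Runx1 KO library for every gene plotted, and Lat is the only gene plotted whose 3 Runx1 KO libraries, from 375 to 579.5 reads, all lie above WT.

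The signalling chains of the complex come first. Cd3d, Cd3g and Cd3e, encoding the CD3 delta, gamma and epsilon chains, lie together on chromosome 9 within 40056 bases (GENCODE M21, GRCm38). Cd3g (ENSMUSG00000002033, 44969572 to 44980431, minus strand) and Cd3d (ENSMUSG00000032094, 44981786 to 44987339, plus strand) are read outwards from start sites 1355 bases apart, and Cd3e (ENSMUSG00000032093, 44998740 to 45009627) is on the minus strand beyond Cd3d.

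Cd3g had 134, 59.5 and 84.4 normalised reads in WT replicates 1 to 3 and 131, 16.8 and 8.95 in Runx1 KO replicates 1 to 3. The Runx1 KO libraries were not alike: replicate 1 was close to the highest WT library and the others lay below every WT library. The log2 change was -1.63 (SE 0.90, limma adjusted p 0.23), and -2.73 (adjusted p 0.0081) without Runx1 KO replicate 1.

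Cd3d behaved alike, with 114, 51.5 and 61.4 reads under WT and 80.5, 14.9 and 8.95 under Runx1 KO. Its groups overlapped through Runx1 KO replicate 1 only. The log2 change was -1.62 (SE 0.76, limma adjusted p 0.165), and -2.52 (adjusted p 0.00964) without that library.

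Cd3e had 76.2, 31.3 and 25.9 reads under WT and 74.3, 7.93 and 9.95 under Runx1 KO. The Runx1 KO replicate 1 value again lay beside that of WT replicate 1, at the top of both groups. Cd3e changed by -1.06 (SE 0.84, limma adjusted p 0.395) with all libraries and by -2.04 (adjusted p 0.0312) without Runx1 KO replicate 1. Gm48719 is annotated antisense to Cd3e, and whether the counting used the strand is not given in the sources used here, so reads of the pair may not have been separated.

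Cd247 encodes the zeta chain, which carries more phosphorylation motifs than the CD3 chains and is shared with Fc and NK receptors (ENSMUSG00000005763, chromosome 1, 165788681 to 165877277, plus strand). It had 69.2, 42.4 and 39.3 reads under WT and 79.5, 29.7 and 15.9 under Runx1 KO. Here Runx1 KO replicate 1 was the highest of all 6 libraries, and the others labelled Runx1 KO lay under all WT libraries. The log2 change of -0.52 (SE 0.56, limma adjusted p 0.533) was the smallest of the 9 in size. Cd247 was also not called without Runx1 KO replicate 1 (-1.12, adjusted p 0.0819), and without Runx1 KO replicate 3 its change was 0.0006. Cd247 overlaps Pou2f1 on the other strand, so its counts are uncertain in the same way. It also overlaps Gm16565 on its own strand, and how shared reads were counted is not given in the sources used here.

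The kinases act next. Lck (ENSMUSG00000000409, chromosome 4, 129548344 to 129573641, minus strand), the Src-family kinase that starts TCR signalling, had 417, 236 and 333 reads under WT and 246, 79.3 and 75.6 under Runx1 KO. Its groups overlapped only in that Runx1 KO replicate 1 exceeded WT replicate 2. The log2 change was -1.48 (SE 0.46, limma adjusted p 0.0603), which missed the threshold. DESeq2 on the recovered reads called it (-1.30, adjusted p 0.021), as did limma without Runx1 KO replicate 1 (-2.03, adjusted p 0.00425). edgeR did not call Lck (adjusted p 0.0998), and neither did limma with any other library left out (adjusted p up to 0.181).

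Zap70 (ENSMUSG00000026117, chromosome 1, 36761798 to 36782818, plus strand), the kinase that binds phosphorylated CD3 and zeta tails, stands next to Lck in the pathway. It had 68.3, 46.4 and 42.2 reads under WT and 60.7, 14.9 and 5.97 under Runx1 KO. As for the CD3 chains, Runx1 KO replicate 1 fell among the WT libraries and the other Runx1 KO libraries below them. The log2 change was -1.46 (SE 0.73, limma adjusted p 0.191), and -2.31 (adjusted p 0.0142) without that library.

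Lat (ENSMUSG00000030742, chromosome 7, 126363824 to 126369570, minus strand), the adaptor phosphorylated by Zap70, was the only gene of the list with a positive log2 change when all libraries were used. It had 232, 205 and 268 normalised reads in WT replicates 1 to 3 (235 ± 31.5, SD, n = 3) and 579.5, 453 and 375 in Runx1 KO replicates 1 to 3 (469 ± 103). The groups did not overlap, and the lowest Runx1 KO library was above the highest WT library. Lat rose by 0.98 on the log2 scale (SE 0.18, limma adjusted p 0.0119), a ratio of means of 2.00. The call did not rest on Runx1 KO replicate 1: without it the change was 0.82 (adjusted p 0.0173), and leaving out each of the 6 libraries in turn gave adjusted p values from 0.0167 to 0.0492. Lat was called in each of the other settings tried as well. The RUNX letters shown above were found for Lat and also for Lck and Zap70, whose log2 changes were negative, and a link of the letters to these changes was not tested.

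Cd2 (ENSMUSG00000027863, chromosome 3, 101275899 to 101287939, minus strand) encodes an adhesion receptor that binds CD48 in the mouse and whose tail recruits T-cell signalling proteins. It had 712, 153 and 259.9 reads under WT (375 ± 297, SD, n = 3) and 129, 21.8 and 15.9 under Runx1 KO (55.5 ± 63.5). No library labelled Runx1 KO reached the lowest WT library, although the WT libraries differed widely, with replicate 1 far above the others. The summed B-cell markers, given below, had both of these traits, while the CD3 genes had Runx1 KO replicate 1 within the WT range. Whether Cd2 RNA came from B cells was not tested. Cd2 fell by 3.06 on the log2 scale (SE 0.85, limma adjusted p 0.0436), the largest change of the 9 in size. This call was not stable: edgeR on the recovered reads gave -2.75 with an adjusted p of 0.0693, and of the 6 leave-one-out fits the call held in 1, that without Runx1 KO replicate 1 (-3.96, adjusted p 0.00781), with adjusted p values up to 0.139 in the others.

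Thy1 (ENSMUSG00000032011, chromosome 9, 44043384 to 44048579, plus strand) encodes the glycolipid-anchored surface protein CD90. It had 540.1, 301 and 326 reads under WT and 272, 93.2 and 64.6 under Runx1 KO. The groups did not overlap, with Runx1 KO replicate 1 just under the lowest WT library. The log2 change was -1.66 (SE 0.51, limma adjusted p 0.0585), not past the threshold. DESeq2 called it (-1.44, adjusted p 0.0154), and so did limma without Runx1 KO replicate 1 (-2.26, adjusted p 0.00515). Thy1 was not called in edgeR (adjusted p 0.0977), nor in limma with any other library left out (adjusted p up to 0.171).

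**Figure D2:**
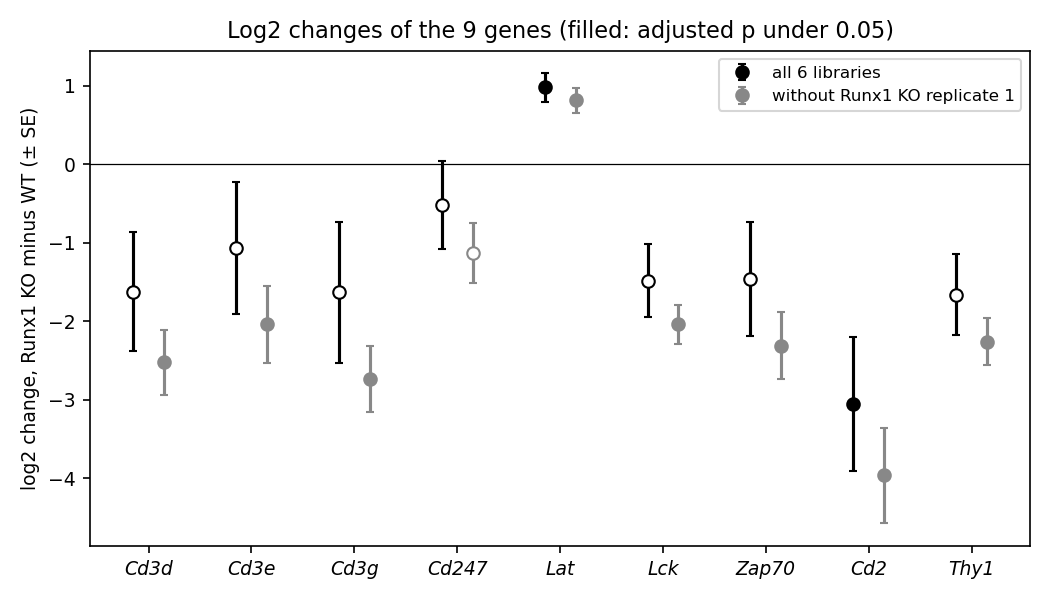
Log2 change (Runx1 KO minus WT, bars ± SE, limma) of each of the 9 genes with all 6 libraries (black) and without Runx1 KO replicate 1 (grey), filled where the adjusted p was under 0.05. With all libraries only Lat (0.98) and Cd2 (-3.06) are filled, and without that library every gene but Cd247 is.

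Levels were also put on a scale per kilobase of exon, so that genes could be compared with each other. Under WT the order of mean levels was Cd2 (216 normalised reads per kilobase), Thy1 (129.9), Lck (112), Lat (84.9), Cd3d (41.6), Cd3g (28.3), Zap70 (17.5), Cd3e (10.9) and Cd247 (9.44). Under Runx1 KO it was Lat (169.5), Thy1 (47.8), Lck (45.6), Cd2 (31.9), Cd3d (19.2), Cd3g (16.0), Zap70 (9.08), Cd247 (7.83) and Cd3e (7.53). The WT libraries of neighbours in this order overlapped except between Lat and Cd3d, and the Runx1 KO libraries of neighbours overlapped except between Lat, now at the top, and Thy1. The order under Runx1 KO rests in part on replicate 1: without it the means were Lat 149.6, Lck 26.4, Thy1 26.3, Cd2 10.8, Cd3d 6.56, Cd247 4.28, Cd3g 3.95, Zap70 3.48 and Cd3e 2.19, which puts Lck level with Thy1 and Cd247 above Cd3g and Zap70.

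The chains that bind antigen were read through their constant regions, of which Trac, Trbc1, Trbc2 and Trdc were listed. None of these 4 was called (median log2 change -1.29), and all 4 were lower and called without Runx1 KO replicate 1. Trbc2, with the highest mean read count of the 4, had 164, 67.6 and 104 reads under WT and 161, 20.8 and 11.9 under Runx1 KO (-1.57, SE 0.89, limma adjusted p 0.245, and -2.66, adjusted p 0.00903, without that library). Trbc1 and Trbc2 are near-identical copies, and how their shared reads were counted is not given in the sources used here. Summed, the 4 genes had 409.6, 207 and 256 reads under WT and 416, 66.4 and 42.8 under Runx1 KO, so replicate 1 was the highest library of its group under each label, as for CD3.

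Ratios within a library set the genes against each other without scaling between libraries. The recovered reads of Cd3d, Cd3e and Cd3g over those of the 4 constant regions came to 0.790, 0.688 and 0.670 in the WT libraries and 0.686, 0.597 and 0.651 in the Runx1 KO libraries. The 95% exact (Clopper-Pearson) counting intervals, which cover counting error only, overlapped in all 6, and the widest, in Runx1 KO replicate 3, ran from 0.39 to 1.07 on 28 and 43 reads. Zap70 over CD3 likewise had overlapping intervals, with values from 0.211 to 0.375. Cd247 over CD3 was 0.214, 0.298 and 0.229 under WT and 0.278, 0.75 and 0.571 under Runx1 KO, where replicates 2 and 3 were the highest. The interval of Runx1 KO replicate 2 (0.451 to 1.23) lay above those of WT. That of replicate 3 (0.289 to 1.09) overlapped those of WT replicates 2 and 3.

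Cd2 over CD3 had values that did not overlap between the groups, at 2.20, 1.08 and 1.51 under WT and 0.451, 0.55 and 0.571 under Runx1 KO. Runx1 KO replicate 1 did not stand apart in it. The counting interval of WT replicate 2 (0.852 to 1.37) overlapped those of Runx1 KO replicates 2 (0.311 to 0.948) and 3 (0.289 to 1.09). Lat over CD3 was 0.719, 1.44 and 1.56 under WT and 2.03, 11.4 and 13.5 under Runx1 KO, so the distance of replicate 1 from the others was larger in CD3 than in Lat. The smallest two-sided p that an exact permutation test of such a ratio could reach here is 0.1, so none is given. Lck and Thy1 over CD3 were lowest in Runx1 KO replicate 1 (0.861 and 0.952), and the other Runx1 KO libraries (2.00 to 2.71 for Lck, 2.32 and 2.35 for Thy1) were above all WT libraries (1.29 to 1.94 and 1.67 to 2.11), with counting intervals that overlapped those of WT replicate 3.

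**Figure D3:**
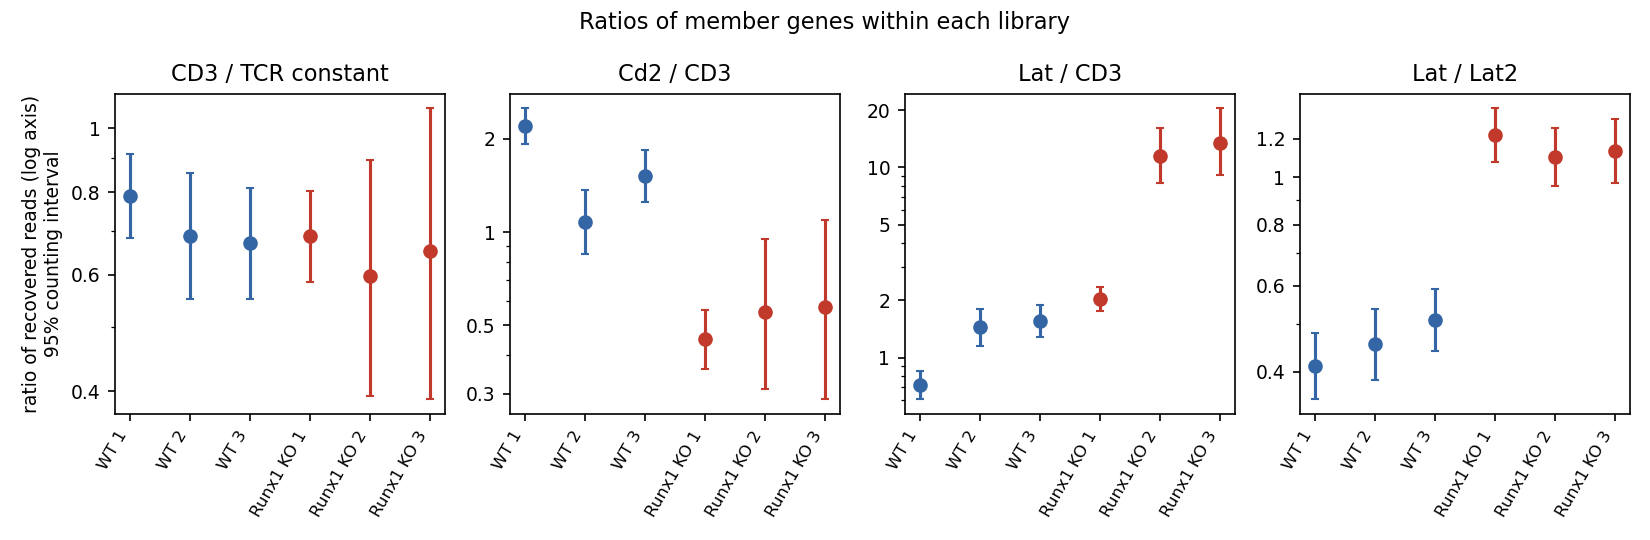
Ratios of recovered reads within each library (log axes, points with 95% exact counting intervals), WT in blue and Runx1 KO in red, for CD3 (Cd3d, Cd3e and Cd3g summed) over the TCR constant regions, Cd2 over CD3, Lat over CD3 and Lat over Lat2. CD3 over the constant regions stays between 0.597 and 0.790, while Lat over Lat2 is 0.411 to 0.511 under WT and 1.10 to 1.22 under Runx1 KO.

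Coreceptors and costimulatory receptors act beside the TCR at the cell contact. Of 14 tested, 1 was higher (Cd27) and 2 lower (Cd6 and Cd96), and 11 did not pass. These 3 calls and those of the lists below are to be read against the background given above, and the median log2 change of -1.24 against that of all tested genes. Cd27, a receptor of the tumour necrosis factor family that stem and progenitor cells also carry, rose by 0.50 (SE 0.10, limma adjusted p 0.0176), from 1122 ± 134 to 1579.8 ± 109 normalised reads (SD, n = 3). Cd6, a scavenger-type receptor of T cells, fell by 2.04 (SE 0.52, adjusted p 0.0328), with 225, 116 and 70.0 reads under WT and 51.3, 16.8 and 27.8 under Runx1 KO. Cd96, which binds nectin-family ligands on T and NK cells, fell by 1.60 (SE 0.39, limma adjusted p 0.0288). Among the 6 leave-one-out fits, Cd27 was called in 5, Cd6 in 2 and Cd96 in 1. Cd48, the ligand of CD2 and the gene with the highest mean read count among those not called, had a log2 change of 0.26 (SE 0.08, limma adjusted p 0.0631). With Runx1 KO replicate 1 left out, 1 was higher and 9 lower, among them Cd4, Cd8a, Cd8b1 and Cd28, which were named after their values were seen.

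Of the signalling genes around and downstream of Lat, 28 were tested, 2 were higher and 7 lower, with a median log2 change of -0.20. Prkcq, the protein kinase C theta that links the TCR to NF-kB, had 350.2, 323 and 387 reads under WT and 1002, 809 and 884 under Runx1 KO. These groups lay well apart, and Prkcq rose by 1.34 (SE 0.11, limma adjusted p 0.00128). Plcg1, the phospholipase that binds phosphorylated Lat, was the other gene that rose (0.47, SE 0.08, limma adjusted p 0.00863). Each passed without Runx1 KO replicate 1 too.

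The largest fall of these genes was that of Sit1, a membrane adaptor of lymphocytes, with 83.1, 22.2 and 38.4 reads under WT and 10.5, 1.98 and 0 under Runx1 KO (-3.71, SE 0.90, limma adjusted p 0.0285). The last values are at or under 3 reads, and Sit1 kept its call in 1 of the 6 leave-one-out fits. Rasgrp1, the exchange factor that activates Ras after TCR stimulation, fell by 2.00 (SE 0.37, adjusted p 0.0114 by limma), from 1056, 448 and 704 reads to 265, 149.6 and 129. The fall of Rasgrp1 was called in all 6 of those fits, and so was the rise of Prkcq. Grap2, an adaptor that joins Lat to Lcp2, fell by 1.38 (SE 0.33, limma adjusted p 0.0265), and Nfatc2, a transcription factor released by calcium signalling, by 0.57 (SE 0.15, adjusted p 0.0356), each called in 1 of them. Nfatc1 and Malt1 fell too. Vav1, an exchange factor used by many blood lineages with the highest mean read count among those not called, had 7231 ± 228 and 6603 ± 475 normalised reads (-0.13, SE 0.07, limma adjusted p 0.198). Without the first Runx1 KO library, 2 were higher and 12 lower.

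**Figure D4:**
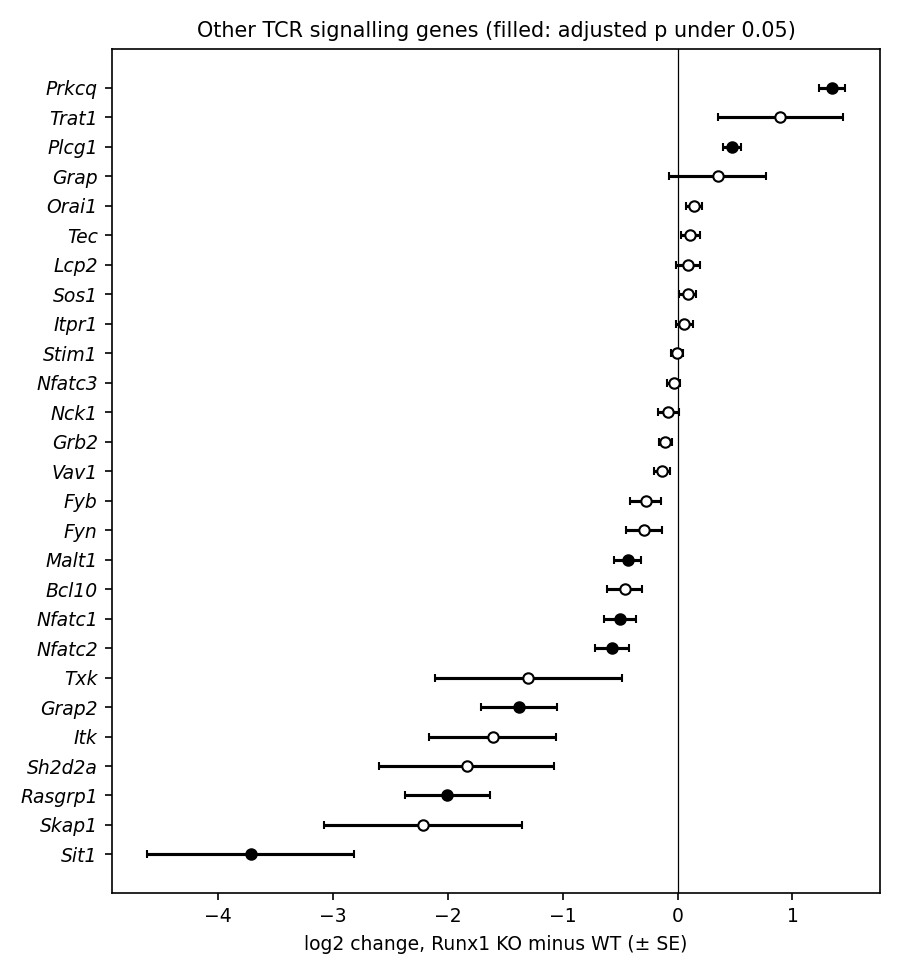
Log2 change (Runx1 KO minus WT, bars ± SE, limma, all 6 libraries) of tested signalling genes around and downstream of Lat, ordered by size and filled where the adjusted p was under 0.05. Prkcq (1.34) and Plcg1 (0.47) are the filled genes above 0, and Sit1 (-3.71) has the lowest value of the filled genes below it.

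Inhibitors set the threshold of TCR signalling. Of 16 tested, 1 was higher and 4 lower, with a median log2 change of -0.15. Dgkz, a diacylglycerol kinase that limits Ras activation, rose by 0.28 (SE 0.06, limma adjusted p 0.0144), while Dgka, a kinase of the same family, fell by 0.70 (SE 0.19, adjusted p 0.0396). Ptpn6, the phosphatase SHP-1 of many blood lineages, fell by 0.55 (SE 0.09, limma adjusted p 0.0083). Pag1, the anchor of Csk, the kinase that restrains Lck, fell by 0.67 (SE 0.17, limma adjusted p 0.0325), and Sla, an adaptor that promotes loss of the TCR complex, by 0.46 (SE 0.11, adjusted p 0.0303). The call held in all 6 leave-one-out fits for Ptpn6, in 5 for Dgkz, in 3 for Pag1 and in 2 each for Dgka and Sla. Ptprc encodes the phosphatase CD45, which also activates Lck and so is not only an inhibitor. It had the highest mean read count of the list and was not called (-0.62, SE 0.20, limma adjusted p 0.0637). With all libraries but the first labelled Runx1 KO, 1 was higher and 7 lower.

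Myeloid and B cells use counterparts of these proteins, and 14 of them were tested. None was higher and 7 were lower, with a median log2 change of -0.67. Lat2, the adaptor of B cells, mast cells and monocytes that resembles Lat, had 566, 450.04 and 524 reads under WT and 474, 411 and 331 under Runx1 KO. It was not called (-0.35, SE 0.15, limma adjusted p 0.147). Lat over Lat2 within a library was 0.411, 0.455 and 0.511 under WT and 1.22, 1.10 and 1.13 under Runx1 KO. This ratio did not overlap between the groups, and Runx1 KO replicate 1 did not stand apart in it. Syk, the kinase that takes the place of Zap70 in these cells, was not called (-0.42, SE 0.16, limma adjusted p 0.0948), at 11840.2 ± 2805 and 8696 ± 637 normalised reads. Fgr, a Src-family kinase of myeloid cells, fell by 1.92 (SE 0.36, adjusted p 0.012 by limma), and Fcer1g, the Fc receptor gamma chain that resembles zeta, by 1.32 (SE 0.20, adjusted p 0.00582). Tyrobp, Lyn, Hcst and Plcg2 fell too. Fgr and Fcer1g were called in all 6 leave-one-out fits, Lyn in 5, Tyrobp in 4 and Hcst in 1, and Hcst was not called in edgeR (adjusted p 0.0507). With Runx1 KO replicate 1 left out, none of the list was higher and 8 were lower.

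Transcription factors of the T lineage gave 1 higher and 2 lower calls among 9 tested (median log2 change -1.32), and 1 higher and 6 lower (median -2.03) when Runx1 KO replicate 1 was left out. Ets1 fell by 2.35 (SE 0.26, limma adjusted p 0.00278), from 4693, 3154 and 3176 reads to 1046, 613 and 547, and Id3, an inhibitor of E proteins, by 2.20 (SE 0.63, adjusted p 0.0468). Ets1 was called in all 6 leave-one-out fits, but Id3 in 1 of them, with adjusted p values up to 0.146, and not in edgeR (adjusted p 0.0717). Runx3, a relative of Runx1 that acts in CD8+ T cells and NK cells, rose by 0.65 (SE 0.11, limma adjusted p 0.00929). Tcf7, which acts early in the T lineage, had 307, 255 and 302 reads under WT and 222, 77.3 and 62.7 under Runx1 KO. Its groups did not overlap, but it was not called (-1.48, SE 0.44, limma adjusted p 0.0523). DESeq2 called Tcf7 (-1.26, adjusted p 0.0211), and so did limma once Runx1 KO replicate 1 was left out (-2.03, adjusted p 0.00179). edgeR did not call Tcf7 (adjusted p 0.0942), and neither did limma with any other library left out (adjusted p up to 0.161). Of 9 tested genes of early T-cell development, 5 were lower and 1 higher (median -0.72). Dtx1 (-3.90, SE 0.82, limma adjusted p 0.0182) and Hes1 (-1.49, SE 0.41, adjusted p 0.0424), targets of Notch, fell, as did Notch1 itself (-0.72, SE 0.17, adjusted p 0.0258). Rag1 (-3.38, limma adjusted p 0.0468) and Il7r (-2.15, adjusted p 0.0399), which early B cells share, fell too. Rag1 had 4780.2, 493 and 699 reads under WT and 328, 54.5 and 78.6 under Runx1 KO, so WT replicate 1 stood far above the rest. Its call was lost in edgeR (adjusted p 0.054) and held in 1 of the 6 leave-one-out fits, and without WT replicate 1 its change was -2.38. Il7r held its call in 2 of these fits, Hes1 in 2, Notch1 in 3 and Dtx1 in 4. Dntt, the polymerase that adds bases at V(D)J joints, rose by 0.57 (SE 0.14, limma adjusted p 0.0311), a call held in 3 of the fits. Leaving out Runx1 KO replicate 1 again gave 5 lower and 1 higher in this list.

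Markers of other cell types differed between the labels too, with some lists lower and others higher, and their part in the results above was not tested. Of 14 B-cell markers, 12 were lower (median log2 change -4.49), and 14 when Runx1 KO replicate 1 was left out. Their summed level was 73139.5, 33529.8 and 42799 normalised reads under WT and 19676, 8389 and 8982 under Runx1 KO. Here too replicate 1 was the highest of its group under each label, yet Runx1 KO replicate 1 lay below every WT library. Of 14 NK and innate lymphoid markers, 3 were lower with all libraries (median log2 change -1.30) and 11 without Runx1 KO replicate 1. The largest fall called was that of Gzmb, a granule protease, from 389.8, 276 and 298 reads to 74.3, 12.9 and 2.98, the last of them at 3 reads (-4.31, SE 0.94, limma adjusted p 0.02). Its call held in 2 of the 6 leave-one-out fits, with limma adjusted p values up to 0.0726. The summed NK level ran from 7702 to 8484 under WT and from 4786 to 5808 under Runx1 KO, but Nkg7 made up most of it. Without Nkg7, a split chosen after the values were seen, the sum was 2252, 1962 and 2435 under WT and 2058, 672 and 623 under Runx1 KO, so Runx1 KO replicate 1 lay within the WT range, as for CD3. Of the 14 NK markers that library was within the WT range for 3, above it for 6 and below it for 5. Plasmacytoid dendritic markers gave 1 higher and 4 lower calls of 10 (median log2 change -2.39), and 0 higher and 7 lower (median -3.21) when Runx1 KO replicate 1 was left out. Their sums of 14840.1 to 23785 under WT and 10899 to 17017 under Runx1 KO overlapped, and Irf8, which was not called (-0.28, limma adjusted p 0.343) and was named after its values were seen, had the largest share of them.

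Lat also serves in platelets and mast cells, whose lists follow with that of stem cells, and in NK cells, whose list is given above. Of 14 megakaryocyte and platelet markers, 8 were higher and none lower (median log2 change 0.81). Without Runx1 KO replicate 1, 6 were higher and 1 lower (median 0.68), the lower one being Pf4, a platelet chemokine named after its values were seen (-1.23, limma adjusted p 0.00866, against -0.89, adjusted p 0.0782, with all libraries). The sum of the list ran from 10384 to 11929.7 reads under WT and from 13101 to 16611 under Runx1 KO. Treml1, a platelet granule receptor, rose by 2.31 (SE 0.24, limma adjusted p 0.00231), and Selp, the platelet adhesion protein P-selectin, by 1.79 (SE 0.15, adjusted p 0.00128). Of 9 mast cell and basophil markers, 1 was higher and 5 lower, with or without Runx1 KO replicate 1 (median log2 change -1.40 with all libraries). The 3 that were not called had positive log2 changes, from 0.31 to 0.66. Among the lower ones was Mcpt8, a basophil protease, with 1662 ± 198 and 132 ± 10.4 reads (SD, n = 3). The sums of the list overlapped (14832 to 18708 under WT, 13898.5 to 16759 under Runx1 KO). Stem and multipotent markers gave 12 higher and no lower calls of 16 (median log2 change 0.91), the same counts without that library, with sums of 24513 to 29377 and 38073.5 to 43862. Of the genes on these lists, Sit1, Gp6, Tpsb2 and Klk1 were at 0 in at least 1 library. None of the 9 TCR genes or the 4 constant regions was at 0 in any library. Whether Lat was read from any of these lineages was not tested.

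**Figure D5:**
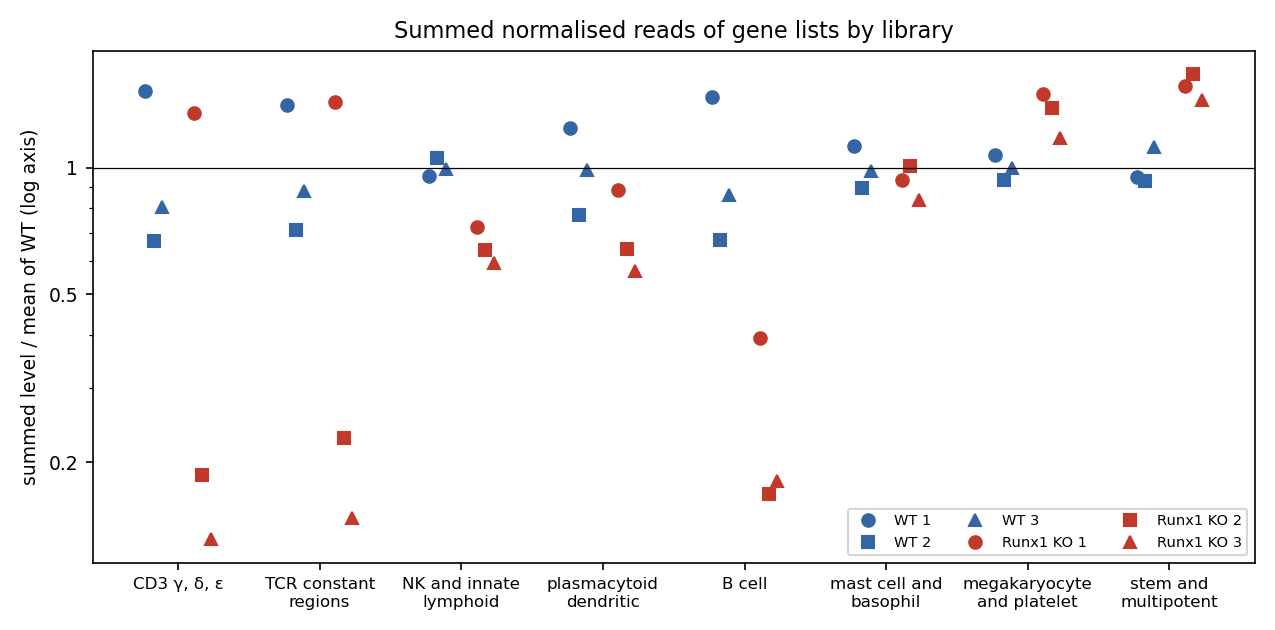
Summed normalised reads of each marker list in each library, divided by the mean of the WT libraries (log axis, line at 1), with WT in blue, Runx1 KO in red and a marker shape for each replicate number. CD3 and the TCR constant regions place Runx1 KO replicate 1 above the WT mean and the other Runx1 KO libraries far below it, while the B-cell list places all 3 Runx1 KO libraries below every WT library.

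Genes with the most similar pattern were sought among 13895 genes with a mean of at least 20 normalised reads, by Pearson's r of log2 values over the 6 libraries. These values are descriptions, since the points share the libraries and the split between the labels. The mean of Cd3d, Cd3e and Cd3g was most like Cd8b1 (r = 0.994), Trbc2 (0.993), Trdc (0.991) and Gzma (0.989), which are genes of T and cytotoxic lymphocytes, and 98 genes (0.705%) had an r over 0.95. Lat was most like Tspan3 (r = 0.997), Wdr13 (0.994), Nrp2 (0.994) and Zfp384 (0.992), with 278 genes (2.00%) over 0.95. None of these 4 was among the 4 named for the CD3 mean. Nrp2, a semaphorin coreceptor, had 430.3, 370.3 and 459 reads under WT and 1211, 912 and 802 under Runx1 KO, which puts the libraries of each group in the same order as Lat does.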

How the data were processed

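Poly-A RNA of c-Kit+ bone marrow cells was measured in 3 WT and 3 Runx1 KO libraries, by a kit that keeps strand, per the labels' protocols. HISAT2, HTSeq 0.9.1 and the build names mm10 and GRCm38 are listed in the submitters' processing notes, and whether counting used the strand is not given in the sources used here. The deposited values are a signal per gene, called normalised read count here: the values show them to be reads over a size factor of the library. In each library 100% of values were whole multiples of the smallest, within 0.001, and these multiples are called recovered reads. Genes under 10 recovered reads in all are not listed.

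Symbols were found for 20077 of 20097 identifiers, and positions and exon lengths were taken from GENCODE M21. Genes passing filterByExpr of edgeR (minimum count 10, minimum total 15) were tested with limma 3.58.1 (lmFit, eBayes with a mean trend, two-sided) on log2(value + 1), with Benjamini-Hochberg adjustment over 15410 genes. Adding 1 understates the change of low genes, while edgeR gave smaller falls than limma for the CD3 genes. The alternatives were edgeR 4.0.16 and DESeq2 1.42.0 on recovered reads, pseudocounts of 0.5 and 5, other filters and scalings, the replicate number as a block, and leaving out each library, which keeps the same genes. The limma and edgeR fits were tested on simulated data.

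The 9 genes and the lists were chosen with earlier results of these data known. Beside the 9, the text names up to 6 called genes of largest change per pathway list, 3 per marker list, in each pathway list the gene of highest mean that was not called, the 4 genes most like Lat and like CD3, and Runx1. Kit, Irf8, Pf4, Plcg1, Nfatc1, Malt1, Plcg2, Lat2, Trac, Trbc1 and Trdc lie outside this rule and were named after their values were seen. Replicates differed beyond sampling noise, with a chi-square per degree of freedom from 7.69 to 37.1. Reads are not counts of independent molecules, so intervals and floors cover counting error only. Some genes that enter the counts of the lists are not reported here.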

Additional observations from a re-analysis of the deposited data

How the results depend on the processing

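Over the settings that kept all 6 libraries, 82 of 90 values of the 9 genes stayed on their side of the threshold, 1 was weaker, 7 were stronger and none was reversed; for the other named genes these were 518, 9, 13 and 0 of 540. The count of the 9 genes called, 2 in limma, was 1 in edgeR, 4 in DESeq2, 5 with the replicate block in limma and 4 with the replicate block in edgeR. The log2 change of Cd2 lost its call in edgeR (-2.75). Lck and Thy1 gained one in DESeq2 (-1.30 and -1.44). With a replicate block, Cd3d (-1.62), Lck (-1.48) and Thy1 (-1.66) gained one in limma, and Lck (-1.46) and Thy1 (-1.63) in edgeR. The replicate block called 3843 genes in all, against 3370, and 26 of the coreceptor, signalling, inhibitor and constant region genes, against 17. Replicate numbers come from the titles alone. Deviations from the group means of same-numbered libraries correlated at 0.287, 0.129 and -0.010 for numbers 1, 2 and 3, so not every pair was over 0.1 and the numbers were not taken to pair the samples; WT replicate 2 correlated more with Runx1 KO replicate 3 (0.235).

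With a library left out, the genes called ran from 1349 (without Runx1 KO replicate 2) to 3551 (without Runx1 KO replicate 1), the 9 genes called from 1 to 8, and the other pathway genes called from 5 to 36. Log2 changes ran from -2.52 to -1.004 for Cd3d, -2.04 to -0.50 for Cd3e, -2.73 to -0.87 for Cd3g, -1.12 to 0.0006 for Cd247, 0.82 to 1.13 for Lat, -2.03 to -1.19 for Lck, -2.31 to -0.74 for Zap70, -3.96 to -2.45 for Cd2 and -2.26 to -1.23 for Thy1. The change of Cd247 reversed without Runx1 KO replicate 3 (0.0006, limma adjusted p 0.999), and the cause was not tested beyond the smaller number of libraries. Values of the other named genes stayed on their side in 235 of 324 cases, and 85 were weaker. Depth limits Sit1, Gzmb and the low Runx1 KO values of Zap70, Cd3d, Cd3e and Cd3g, which rest on few reads.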
